A study of Mus musculus with 24 samples.

Results

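Chromatin accessibility was examined at 10 genes that encode scavenger and efferocytosis receptors of macrophages: Msr1, Cd36, Mrc1, Cd163, Scarb1, Stab1, Olr1, Mertk, Axl and Timd4. A peak was counted to a gene when it overlapped the gene body or the 20 kb on either side, and a peak within reach of several of these genes went to the nearest one. This gave 200 of the 184158 consensus peaks, and 193 of them were covered well enough to be tested. Cd36 held 37 of the peaks, Mrc1 33, Mertk 27, Msr1 21, Scarb1 20, Olr1 19, Axl 17, Cd163 12, Stab1 10 and Timd4 4. Of the 200, 100 lay in introns, 36 upstream, 33 downstream, 24 over exons and 7 over an annotated transcription start site (TSS) of the gene. For 44 peaks the nearest protein-coding TSS belonged to another gene, and 5 lay over such a TSS, so the gene named is the one of the rule and not a known target.

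ATAC-seq measures how readily a transposase inserts into chromatin, so that open regulatory DNA stands out as peaks of reads. The 24 libraries came from bone marrow-derived macrophages (BMDM) of C57BL/6J wild type mice (WT) or of mice with a germline knockout of the aryl hydrocarbon receptor (AhR-KO, B6.129-Ahr tm1Bra/J), with 6 animals in each of 4 groups: WT_unstimulated, AhR-KO_unstimulated, WT_LPS and AhR-KO_LPS. Whether the unstimulated and LPS cultures of a genotype came from the same animals is not stated. Whole marrow was grown in all groups in 10% serum with TGF-β at 2 ng/ml and GM-CSF at 10 ng/ml, and the labels give 5 µM of the calcium ionophore A23187 for 10 min for every library. The LPS groups had been given 97 EU/ml LPS, the bacterial cell wall component sensed by TLR4, on day 6 for 24 h. Mice of both genotypes were matched for age and sex. The knockout is present in every cell of the mouse, so an effect in the macrophages and one on the marrow they grew from cannot be told apart.

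Macrophages use these receptors to clear lipoproteins, modified proteins and dying cells. Scavenger receptors (Msr1, Cd36, Scarb1, Olr1, Stab1 and Cd163) bind ligands such as oxidised LDL, HDL or haemoglobin-haptoglobin complexes, and Mrc1 is the mannose receptor. Efferocytosis, the uptake of apoptotic cells, depends on phosphatidylserine, which Timd4 and Stab1 bind directly and which the receptor tyrosine kinases Mertk and Axl recognise through bridging proteins such as Gas6. AhR is a ligand-activated transcription factor, and the comparisons ask how its absence and LPS stimulation are reflected at these loci.

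Total counts ran from 8.54 M in WT_unstimulated replicate 5 to 34.6 M in WT_LPS replicate 3, and values are given in CPM (counts scaled to a common library total, with TMM factors). No consensus peak covered exon 2 of Ahr, the part this allele is known to lack, so none of the 13 peaks over the gene checks the deletion itself. The peak over the Ahr TSS had a median of 22.3 CPM in WT_unstimulated and 13.1 CPM in AhR-KO_unstimulated libraries. All 6 macrophage markers examined had a TSS peak, with summed levels of 153.1 to 160.9 CPM in WT_unstimulated and 165.0 to 198.7 CPM in AhR-KO_unstimulated libraries, while none of the 4 B cell markers and 1 of the 4 T cell markers had one. Some markers of other cell types also differed between the genotypes. The TSS peak of Flt3, a progenitor and dendritic cell marker, ran from 5.93 to 12.1 CPM in WT_unstimulated and from 2.96 to 4.57 CPM in AhR-KO_unstimulated libraries, that of the mast cell and progenitor marker Kit from 8.96 to 12.9 and from 3.97 to 5.30 CPM, and the sum over 6 alveolar macrophage markers from 39.4 to 51.3 and from 55.1 to 69.3 CPM. Gata2, the other mast cell marker with a TSS peak, overlapped between the genotypes, with 5.82 to 7.73 and 5.11 to 6.22 CPM. Of the alveolar markers, Siglecf and Car4 were higher in AhR-KO without overlap, while Pparg, Fabp4 and Marco overlapped. Chil3 was not higher in AhR-KO, with 6.54 to 9.54 and 6.44 to 8.18 CPM. The dendritic cell marker Batf3 was higher in AhR-KO, with 12.7 to 16.99 and 17.9 to 22.55 CPM, Zbtb46 overlapped between the genotypes, with 19.1 to 23.4 and 22.3 to 27.7 CPM, and the sum over the 5 of 6 dendritic cell markers with a TSS peak ran from 41.1 to 51.1 and from 46.1 to 55.35 CPM. With LPS, the WT and AhR-KO ranges were 8.12 to 15.2 and 3.75 to 5.06 CPM for Flt3, 10.97 to 15.9 and 5.47 to 6.998 CPM for Kit, and 28.8 to 37.8 and 34.2 to 41.4 CPM for the alveolar sum, and 45.8 to 71.05 and 41.1 to 44.3 CPM for the dendritic cell sum. In bulk ATAC-seq, a larger share of cells with an open site and a more open site in each cell cannot be told apart, and the part of cell composition in the results was not tested.

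The stretches printed here are the 300 bases at the centre of 6 peaks away from the TSS on which the results turn: 2 at genes that lost accessibility with LPS (Mrc1, Mertk), 1 at the gene with the most gains in AhR-KO cells given LPS (Cd36), and 1 each at Scarb1, Cd163 and Msr1. They are read from the mm10 plus strand in lower case, and capitals mark matches to 2 short motifs, AP-1 (TGANTCA) and C/EBP (TTGCNNAA), searched on both strands. The distance in each name is that of the peak centre from the 5′ end of the gene, in the gene's direction.
Mrc1 +32.9 kb: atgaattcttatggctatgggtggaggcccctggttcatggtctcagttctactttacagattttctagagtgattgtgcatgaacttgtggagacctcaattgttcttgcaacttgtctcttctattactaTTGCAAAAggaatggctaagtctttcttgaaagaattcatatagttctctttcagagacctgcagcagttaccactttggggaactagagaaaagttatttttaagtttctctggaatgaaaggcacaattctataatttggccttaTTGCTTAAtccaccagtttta
Mertk +10.9 kb: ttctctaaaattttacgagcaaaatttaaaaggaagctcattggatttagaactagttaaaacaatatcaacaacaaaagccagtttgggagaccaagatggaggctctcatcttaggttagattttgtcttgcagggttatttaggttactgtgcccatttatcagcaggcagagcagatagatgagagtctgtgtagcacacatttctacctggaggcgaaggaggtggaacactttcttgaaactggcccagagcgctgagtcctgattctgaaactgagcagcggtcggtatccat
Cd36 +45.3 kb: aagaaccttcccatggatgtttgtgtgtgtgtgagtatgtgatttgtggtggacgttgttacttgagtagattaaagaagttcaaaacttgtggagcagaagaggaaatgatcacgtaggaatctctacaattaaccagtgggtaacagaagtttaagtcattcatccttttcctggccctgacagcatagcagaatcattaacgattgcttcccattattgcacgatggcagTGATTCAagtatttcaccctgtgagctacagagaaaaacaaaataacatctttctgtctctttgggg
Scarb1 +35.5 kb: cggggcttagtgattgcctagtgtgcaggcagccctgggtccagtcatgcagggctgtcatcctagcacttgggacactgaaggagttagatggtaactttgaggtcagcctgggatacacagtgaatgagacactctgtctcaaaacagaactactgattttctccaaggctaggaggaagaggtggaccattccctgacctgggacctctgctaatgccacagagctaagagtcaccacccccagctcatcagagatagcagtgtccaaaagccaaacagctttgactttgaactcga
Cd163 +20.2 kb: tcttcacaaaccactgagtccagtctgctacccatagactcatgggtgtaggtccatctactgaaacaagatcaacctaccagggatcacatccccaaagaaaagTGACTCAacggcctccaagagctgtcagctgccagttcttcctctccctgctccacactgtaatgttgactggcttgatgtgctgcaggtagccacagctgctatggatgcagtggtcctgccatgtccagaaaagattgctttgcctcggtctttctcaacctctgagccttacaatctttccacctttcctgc
Msr1 -3.99 kb: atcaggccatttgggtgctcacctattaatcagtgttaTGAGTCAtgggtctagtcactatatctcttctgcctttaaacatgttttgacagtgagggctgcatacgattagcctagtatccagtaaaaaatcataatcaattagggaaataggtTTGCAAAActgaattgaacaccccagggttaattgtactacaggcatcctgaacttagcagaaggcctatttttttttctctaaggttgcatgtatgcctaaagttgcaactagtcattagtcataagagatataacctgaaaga
The Mrc1 stretch (chr2:14262094-14262393) held 2 C/EBP matches, and the Mertk stretch (chr2:128709758-128710057) held no match to any of the 9 motifs searched. The Cd36 stretch (chr5:17843323-17843622) held an AP-1 match, and at 300 bases it reaches slightly beyond the peak. The Scarb1 stretch (chr5:125305427-125305726) held no match, the Cd163 stretch (chr6:124324744-124325043) an AP-1 match, and the Msr1 stretch (chr8:39646515-39646814) both an AP-1 and a C/EBP match.

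Of the 10 genes, 7 had a peak over an annotated TSS, and Cd163, Stab1 and Timd4 had none. LPS lowered most of these promoter peaks, while the genotypes differed there by less than 1.5-fold. Differentially accessible regions (DARs) had to pass a threshold of 0.05 in the edgeR quasi-likelihood test, with Benjamini-Hochberg adjustment over all 174193 tested peaks, and to change 1.5-fold or more. No TSS peak was a DAR between the genotypes, either at rest or after LPS, whereas 4 of the 7 were lower DARs after LPS in WT and 5 in AhR-KO cells. Of all tested peaks, 21.6% and 21.5% were lower DARs with LPS in WT and AhR-KO.

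Mertk (chr2:128698956-128802894), the efferocytosis receptor that defines many mature tissue macrophages, had a TSS peak of 19.8, 21 and 21.8 CPM (lowest, median and highest of 6 libraries) in WT_unstimulated and 25.9, 27.9 and 32.5 CPM in AhR-KO_unstimulated. With LPS it stood at 12.9, 13.8 and 14.8 CPM in WT and at 14.1, 16.1 and 18.1 CPM in AhR-KO. All AhR-KO libraries lay above all WT libraries at rest and all LPS libraries below all unstimulated ones. The genotype difference at rest passed the p threshold but not the fold threshold, at a log2 fold change of 0.44 ± 0.0654 (SE, adjusted p = 1.04e-06). LPS lowered the peak by a log2 fold change of -0.60 in WT and -0.81 in AhR-KO. The WT value lies at the 1.5-fold limit: it was -0.58 without WT_unstimulated replicate 6, WT_LPS replicate 1, WT_LPS replicate 4 or AhR-KO_LPS replicate 3, and then no longer a DAR.

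The TSS peak of Mrc1 (chr2:14229392-14332057), the mannose receptor CD206, had the most negative LPS value of the 7 in both genotypes. It measured 10.8, 12.5 and 14.1 CPM in WT_unstimulated against 4.39, 5.21 and 7.42 CPM in WT_LPS, a log2 fold change of -1.15 ± 0.0972 (adjusted p = 8.91e-13). In AhR-KO cells it went from 13.3, 15.5 and 16.3 CPM to 4.47, 5.00 and 5.62 CPM, a log2 fold change of -1.59 ± 0.0972 (adjusted p = 8.43e-17). In neither genotype did LPS and unstimulated libraries overlap. The LPS effect was 0.43 log2 units more negative in AhR-KO cells (adjusted p = 0.0276 for the interaction), which is below 1.5-fold.

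Scarb1 (chr5:125277087-125341094), the HDL receptor SR-BI, had a TSS peak of 29.7, 31.7 and 32.9 CPM in WT_unstimulated, 33.9, 38 and 38.6 CPM in AhR-KO_unstimulated, 21.7, 24.1 and 25.3 CPM in WT_LPS and 19.8, 20.2 and 22.4 CPM in AhR-KO_LPS. The order of the genotypes turned between the treatments: AhR-KO stood above WT at rest (log2 fold change 0.23, adjusted p = 0.000887) and below it with LPS (-0.22, adjusted p = 0.00162). The difference between these 2 effects was -0.45 ± 0.0779 (adjusted p = 0.000149), again under 1.5-fold. LPS lowered the peak past 1.5-fold in AhR-KO (-0.85), while the value in WT was -0.40.

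Axl (chr7:25757273-25788705), the relative of Mertk that is known for its induction under inflammation, had a TSS peak of 7.53, 8.22 and 9.29 CPM in WT_unstimulated and 4.29, 5.20 and 6.00 CPM in WT_LPS. The corresponding AhR-KO values were 9.86, 11 and 12.2 CPM at rest and 4.02, 5.92 and 6.57 CPM with LPS. The log2 fold changes with LPS were -0.72 in WT and -0.95 in AhR-KO, both DARs with no overlap between the groups. The genotype values were 0.40 at rest (adjusted p = 0.00118) and 0.16 with LPS (adjusted p = 0.195).

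Cd36 (chr5:17781690-17888801), the class B receptor for oxidised LDL and fatty acids, has several annotated start sites, and its TSS peak lay 52.9 kb inside the longest gene model. It measured 5.96, 7.81 and 8.45 CPM in WT_unstimulated and 8.78, 10.2 and 10.9 CPM in AhR-KO_unstimulated, which did not overlap. With LPS it measured 3.53, 4.50 and 4.89 CPM in WT and 4.88, 5.91 and 7.99 CPM in AhR-KO. The log2 fold change with LPS was -0.74 in both genotypes, and AhR-KO exceeded WT by 0.46 at rest and 0.47 with LPS, under 1.5-fold both times.

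The remaining 2 TSS peaks were not lowered by LPS. That of Msr1 (chr8:39581685-39642673), the class A scavenger receptor, had medians of 31.2, 33.9, 32.1 and 39.3 CPM in WT_unstimulated, AhR-KO_unstimulated, WT_LPS and AhR-KO_LPS, and its AhR-KO value exceeded WT by a log2 fold change of 0.26 with LPS (adjusted p = 0.000857) and by 0.12 at rest (adjusted p = 0.133). That of Olr1 (chr6:129485244-129507165), which encodes the oxidised LDL receptor LOX-1, had medians of 19.3, 27.3, 20.6 and 24.2 CPM in the same order. The log2 fold changes of Olr1 were 0.49 (genotype at rest), 0.25 (genotype with LPS), 0.12 (LPS in WT) and -0.12 (LPS in AhR-KO), and the latter 2 did not pass the p threshold. Of the 7 TSS peaks, 6 were higher in AhR-KO at rest by the p threshold alone, none was lower and Msr1 did not pass, with log2 fold changes between 0.12 and 0.49. By the same threshold, 18.9% of all tested peaks were higher and 21.2% lower.

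**Figure D1:**
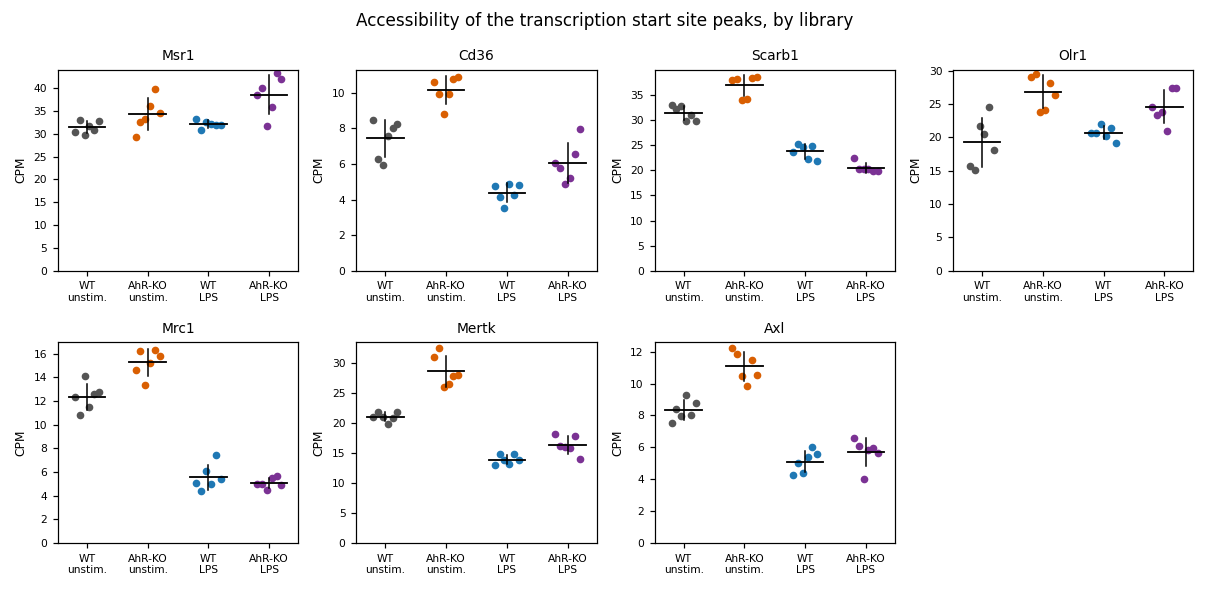
Accessibility in CPM of the TSS peaks of 7 receptor genes, with 1 point per library, the mean as a horizontal bar and the SD as a vertical line, in 4 groups of 6 libraries. LPS libraries lie below the unstimulated ones of the same genotype for Mrc1, Mertk, Axl, Scarb1 and Cd36, while the Msr1 and Olr1 peaks show no such drop.

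Away from the promoters, loss of AhR at rest was seen mainly as gains. Of the 193 tested peaks, 40 were higher and 11 lower in AhR-KO_unstimulated than in WT_unstimulated, which is 26.4% DARs against 22.6% of all tested peaks. The share of higher DARs was 20.7% against 9.95% of all peaks, and that of lower DARs 5.70% against 12.6%. The median log2 fold change was 0.28 over the receptor peaks and -0.02 over all peaks. Mrc1 (12 higher, 2 lower of 32) and Mertk (11 higher, 1 lower of 27) led the gains, followed by Olr1 (6 and 1 of 19) and Scarb1 (4 and 0 of 20). Timd4 (0 and 2 of 4) and Cd163 (1 and 3 of 12) had more lower than higher DARs. Of the 193 peaks, 52 (26.9%) showed no overlap between the genotypes at rest, against 21% of all peaks.

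The Mertk gains were spread over the gene body. The 11 higher DARs lay 10.9 to 105 kb from the 5′ end, with log2 fold changes of 0.62 to 1.26. The intronic peak 10.9 kb from the 5′ end (chr2:128708622-128711192) had 6.05, 6.99 and 7.37 CPM in WT_unstimulated and 11.7, 13.9 and 17.3 CPM in AhR-KO_unstimulated. Every AhR-KO library stood well above every WT library, and the log2 fold change was 1.03 ± 0.0970 (adjusted p = 1.13e-10). Summed over the locus, the Mertk peaks gave 152.3 ± 4.29 CPM (SD, n = 6) in WT_unstimulated and 217.2 ± 21.5 CPM in AhR-KO_unstimulated, with ranges of 147.3 to 157.1 and 190.3 to 247.7 CPM that did not meet.

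At Mrc1 the intronic peak 32.9 kb from the 5′ end (chr2:14261843-14262643) had 6.08, 9.51 and 11.8 CPM in WT_unstimulated and 15.7, 17.9 and 19.96 CPM in AhR-KO_unstimulated, a log2 fold change of 0.93 ± 0.109 (adjusted p = 1.15e-08). The groups did not overlap. A smaller intronic peak at 22.8 kb (chr2:14251903-14252406) went from 2.38, 2.65 and 3.22 CPM to 3.95, 4.73 and 5.4 CPM (log2 fold change 0.78). The sum over the Mrc1 locus was 142.7 ± 7.38 CPM in WT_unstimulated and 182.8 ± 9.47 CPM in AhR-KO_unstimulated, also without overlap.

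Cd163 and Stab1 each had a single gain at rest. Cd163 (chr6:124304656-124330527), the haemoglobin-haptoglobin receptor, had an intronic peak 20.2 kb from its 5′ end (chr6:124324702-124325085) with 1.12, 1.42 and 1.88 CPM in WT_unstimulated and 2.95, 4.04 and 4.49 CPM in AhR-KO_unstimulated. Its log2 fold change of 1.40 ± 0.165 (adjusted p = 1.32e-08) stood against 3 other Cd163 DARs that were lower, by -0.99 to -0.66. Stab1 (chr14:31139013-31168641), the clearance receptor stabilin-1, had 1 DAR among 9 peaks, an exonic one 28.8 kb from the 5′ end (chr14:31139498-31140201) whose nearest TSS is that of Nt5dc2. It had 3.10, 3.86 and 4.19 CPM in WT_unstimulated and 5.97, 6.19 and 6.78 CPM in AhR-KO_unstimulated (log2 fold change 0.73, adjusted p = 2.73e-07).

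The DARs counted to Olr1 lay in the cluster of C-type lectin genes around it. The peak 7.33 kb upstream (chr6:129513551-129515435), nearest to the TSS of Tmem52b, had 31.6, 33.3 and 34.6 CPM in WT_unstimulated and 49.9, 50.8 and 52.0 CPM in AhR-KO_unstimulated (log2 fold change 0.61 ± 0.0497). The peak 28.6 kb from the 5′ end, past the 3′ end of the gene (chr6:129478353-129478748) and nearest to Clec1a, went from 0.495, 0.588 and 0.971 CPM to 1.45, 2.29 and 2.65 CPM. Its log2 fold change of 1.75 ± 0.191 was the largest gain at rest in the 10 loci, and the groups did not overlap.

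Losses at rest were few. Timd4 (chr11:46810800-46844332), the phosphatidylserine receptor of resident macrophages, had the strongest at an intronic peak 1.78 kb from its 5′ end (chr11:46812308-46812854), which is weak: 0.574, 1.16 and 1.31 CPM in WT_unstimulated and 0.228, 0.363 and 0.551 CPM in AhR-KO_unstimulated. The log2 fold change was -1.46 ± 0.422 (adjusted p = 0.00674). At Axl a peak 5.22 kb upstream (chr7:25793757-25794087) had 0.792, 1.40 and 1.70 CPM in WT and 0.483, 0.743 and 1.18 CPM in AhR-KO, which overlapped (log2 fold change -0.80, adjusted p = 0.00305). Msr1 had a single DAR at rest, an intronic peak 40.9 kb from the 5′ end (chr8:39601198-39602451) that was higher by 0.65 and, without WT_unstimulated replicate 3, by 0.55, which is below 1.5-fold.

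After LPS, gains in AhR-KO cells were most numerous at Cd36, followed by Mrc1 and Msr1. In AhR-KO_LPS against WT_LPS, 45 of the 193 peaks were higher and 17 lower (32.1% DARs against 26.5% of all peaks, with 23.3% against 13.4% higher and 8.81% against 13.1% lower). The groups did not overlap at 46 peaks (23.8% against 19.6%). The median log2 fold change was 0.18, against 0.02 over all peaks. Cd36 had 14 higher and 0 lower DARs of 35, where it had had 3 and 1 at rest. Mrc1 had 10 and 2 of 32, Msr1 6 and 1 of 19, Olr1 4 and 0 of 19, and Axl 2 and 0 of 16. Mertk had 3 and 4 of 27, Scarb1 3 and 3 of 20, Timd4 2 and 2 of 4, Cd163 1 and 5 of 12, and Stab1 none of 9. Between the treatments, 20 peaks were higher and 5 lower in AhR-KO both times, and 1 Cd36 peak changed sides. How many of all tested peaks did so was not counted.

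The Cd36 gains with LPS lay on both sides of its TSS peak, which is 52.9 kb from the 5′ end of the longest gene model. The 14 higher DARs lay 38.2 to 112 kb from that 5′ end, with log2 fold changes of 0.60 to 1.68. Of the 35 tested peaks, 21 were not DARs. The 12 of these that lay before the first DAR had values of -0.25 to 0.44. The intronic peak at 45.3 kb (chr5:17843356-17843589) had 0.883, 1.23 and 1.83 CPM in WT_unstimulated and 0.652, 1.06 and 1.48 CPM in AhR-KO_unstimulated, which overlapped. With LPS it had 2.00, 2.69 and 3.32 CPM in WT and 3.87, 5.67 and 7.57 CPM in AhR-KO, which did not. The genotype log2 fold change was -0.37 ± 0.220 at rest (adjusted p = 0.188) and 1.06 ± 0.155 with LPS (adjusted p = 7.31e-07).

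A peak just past the 3′ end of Cd36, 110 kb from its 5′ end (chr5:17778003-17780132), had 1.40, 1.48 and 2.15 CPM in WT_LPS and 3.57, 4.21 and 5.78 CPM in AhR-KO_LPS, a log2 fold change of 1.44 ± 0.146 (adjusted p = 6.33e-10). At rest the same peak differed by 0.60 (adjusted p = 0.00687), with overlapping groups. The intronic peak at 51.3 kb (chr5:17837280-17837673), close to the TSS peak, was higher in AhR-KO both at rest (0.73) and with LPS (0.94). The 1 peak that changed sides, at 41.7 kb, is a weak one (medians 1.84, 1.26, 1.16 and 1.90 CPM in the 4 groups) with overlapping groups both times and log2 fold changes of -0.59 at rest and 0.60 with LPS, close to the 1.5-fold limit.

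**Figure D2:**
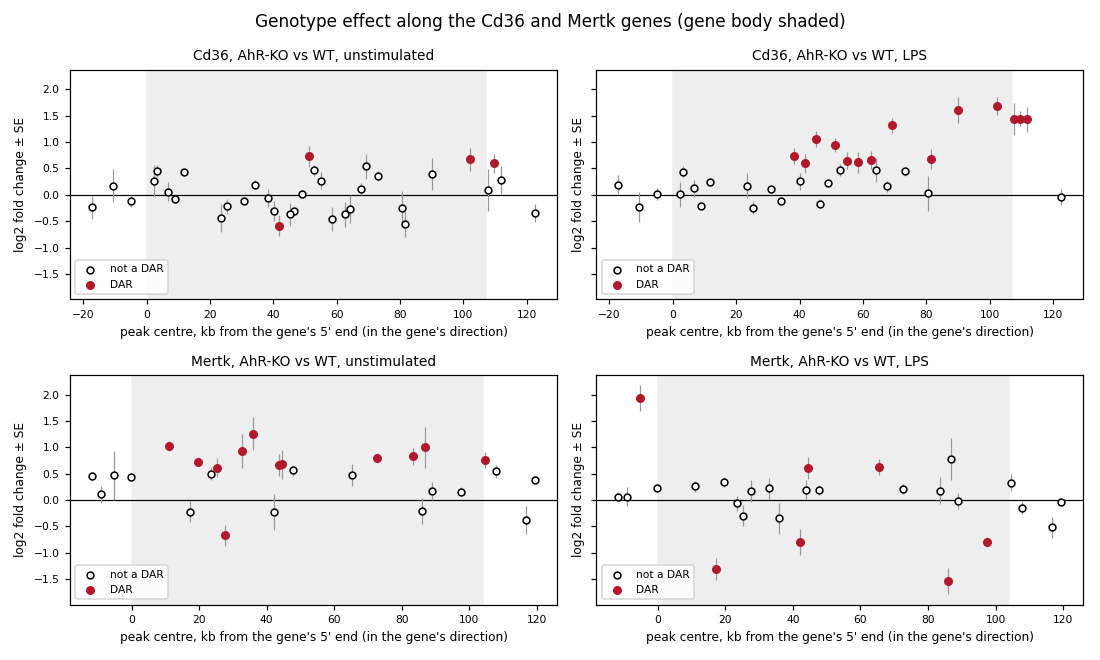
Log2 fold change between AhR-KO and WT (± SE) of each tested peak of Cd36 (top) and Mertk (bottom), unstimulated (left) and with LPS (right), against the distance of the peak centre from the gene's 5′ end in kb. Filled points are DARs, and the gene body is shaded. With LPS the 14 Cd36 DARs are all above 0 and lie from 38.2 kb onward, and the 11 higher Mertk DARs at rest stretch from 10.9 to 105 kb.

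Of the 11 Mertk peaks higher at rest, 1 was also higher with LPS, and at 4 the 2 genotype effects differed by the interaction test. The peak at 10.9 kb had 3.63, 4.32 and 5.10 CPM in WT_LPS and 4.66, 5.16 and 5.62 CPM in AhR-KO_LPS, overlapping groups with a log2 fold change of 0.26 (adjusted p = 0.0368). The summed locus gave 118.8 ± 8.44 CPM in WT_LPS and 123.0 ± 10.9 CPM in AhR-KO_LPS, with overlapping ranges. The strongest loss by p was an intronic peak at 97.6 kb (chr2:128796155-128797000), nearest to the TSS of the neighbour Tmem87b, with 6.80, 7.93 and 10.1 CPM in WT_LPS and 4.39, 4.47 and 5.17 CPM in AhR-KO_LPS (log2 fold change -0.80 ± 0.0972). One upstream peak went the other way: 5.27 kb before the 5′ end (chr2:128693546-128693833), singled out for its size after its values were seen, it had 0.240, 0.386 and 0.666 CPM in WT_LPS and 1.22, 1.55 and 2.11 CPM in AhR-KO_LPS (log2 fold change 1.93 ± 0.244, adjusted p = 5.32e-08).

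The Mrc1 peak at 32.9 kb was higher in AhR-KO with LPS as well. It had 1.69, 2.18 and 2.48 CPM in WT_LPS and 3.40, 3.95 and 4.86 CPM in AhR-KO_LPS, a log2 fold change of 0.90 ± 0.132 next to 0.93 at rest. The peak at 22.8 kb gave 0.77 with LPS next to 0.78 at rest. In contrast, an intronic Mrc1 peak at 82.6 kb (chr2:14311094-14312953), whose nearest TSS is that of Slc39a12, had 3.47, 5.54 and 8.15 CPM in WT_LPS and 2.00, 2.35 and 3.34 CPM in AhR-KO_LPS (log2 fold change -1.20 ± 0.189), without a difference at rest (0.08, adjusted p = 0.788).

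Of the other receptors, Scarb1 had the clearest pair of opposite peaks. Its intronic peak at 35.5 kb (chr5:125305326-125305827) had 4.40, 5.57 and 6.89 CPM in WT_LPS and 8.63, 10.3 and 11.4 CPM in AhR-KO_LPS (log2 fold change 0.86 ± 0.104, adjusted p = 2.21e-08). Its intronic peak at 3.95 kb (chr5:125336992-125337304) had 2.21, 3.12 and 3.53 CPM in WT_LPS and 1.09, 1.41 and 1.85 CPM in AhR-KO_LPS (log2 fold change -1.06 ± 0.142, adjusted p = 1.57e-07). Neither peak showed overlap between the genotypes. Msr1 had an intronic peak at 3.52 kb (chr8:39639017-39639292) with 1.77, 2.25 and 2.64 CPM in WT_LPS and 3.31, 4.31 and 4.67 CPM in AhR-KO_LPS (log2 fold change 0.87 ± 0.133). The Cd163 peak at 20.2 kb stayed higher in AhR-KO (log2 fold change 0.90), the Olr1 peak at 28.6 kb likewise (1.26), and the intronic Timd4 peak stayed lower (-0.98, adjusted p = 0.00406). The upstream Timd4 peaks at 12.3 and 6.18 kb before the 5′ end were higher in AhR-KO_LPS by 1.48 and 1.69, at levels of 0.475 to 1.60 CPM. The genotypes overlapped at all 4 Timd4 peaks with LPS, and WT_LPS ran from 0.0574 to 0.554 CPM at the one at 6.18 kb. At Axl the DAR with the smallest p was a weak peak past the 3′ end, 39.3 kb from the 5′ end (chr7:25749218-25749536) and nearest to Hnrnpul1, with a log2 fold change of 0.96.

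LPS changed the receptor peaks in both directions, with lower DARs outnumbering higher ones at Mrc1, Scarb1, Axl and Mertk and the reverse at Cd36, Msr1 and Stab1. In WT, 47 of the 193 peaks were lower and 36 higher with LPS (43.0% DARs against 47.0% of all peaks, with 24.4% against 21.6% lower and 18.7% against 25.4% higher). In AhR-KO, 71 were lower and 52 higher (63.7% against 48.8%, with 36.8% against 21.5% lower and 26.9% against 27.3% higher). Groups did not overlap at 75 peaks in WT (38.9% against 38.7%) and at 108 in AhR-KO (56.0% against 45.6%). The WT share of DARs was thus close to that of all peaks. The LPS comparisons of the 2 genotypes share no library, and 45 peaks were lower and 31 higher in both, with none of opposite direction. The same count over all tested peaks was not made, so no result particular to the receptor peaks is read from it.

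By gene, losses with LPS prevailed at Mrc1 (16 lower, 3 higher in WT and 23 and 3 in AhR-KO), Scarb1 (7 and 1, 10 and 1), Axl (5 and 1, 9 and 1) and Mertk (9 and 7, 16 and 6). Gains prevailed at Cd36 (1 lower, 5 higher in WT and 1 and 21 in AhR-KO), Msr1 (1 and 8, 2 and 8), Stab1 (1 and 3, 1 and 4) and Timd4 (0 and 1, 0 and 3). Olr1 (4 and 4, 6 and 3) and Cd163 (3 and 3, 3 and 2) had both.

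**Figure D3:**
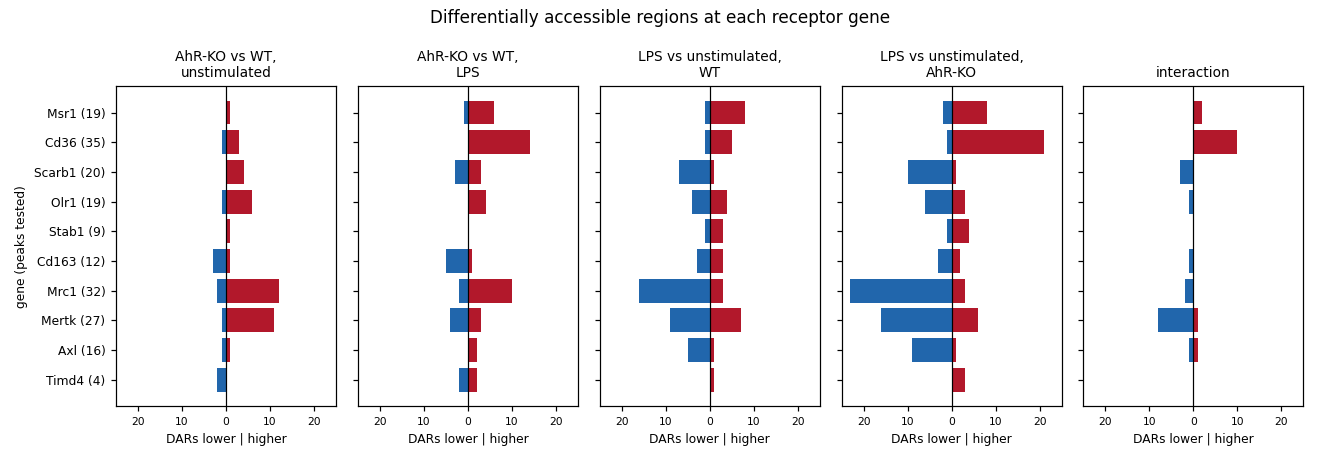
Number of DARs at each receptor gene in the 5 comparisons, with lower DARs as bars to the left and higher DARs to the right of 0, and the number of tested peaks in brackets. Mrc1 and Mertk lead the gains in unstimulated AhR-KO cells, Cd36 leads those with LPS (14 higher, 0 lower), and Mrc1 leads the losses with LPS in both genotypes.

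The Mrc1 peak at 32.9 kb fell from a median of 9.51 to 2.18 CPM in WT (log2 fold change -2.16 ± 0.126) and from 17.9 to 3.95 CPM in AhR-KO (-2.18 ± 0.115). A peak 4.92 kb upstream of Mrc1 (chr2:14223998-14224954) fell from 8.67, 11 and 13.1 CPM to 2.31, 2.48 and 4.25 CPM in WT and from 10.5, 12.6 and 13.2 CPM to 2.14, 2.27 and 2.51 CPM in AhR-KO (log2 fold changes -1.99 and -2.40). No LPS library reached any unstimulated one at either peak. The losses were not uniform over the gene: an exonic peak at 50.2 kb (chr2:14279032-14280171), picked after its values were seen because it moved against the rest, rose from 1.98, 2.45 and 3.02 CPM to 8.90, 12.7 and 17.6 CPM in WT (log2 fold change 2.43 ± 0.141) and from 4.0, 4.92 and 5.29 CPM to 16.3, 20.8 and 24.5 CPM in AhR-KO (2.11 ± 0.123).

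At the efferocytosis receptors, the deepest LPS loss was an exonic peak 83.4 kb into Mertk (chr2:128782156-128782568), nearest to Tmem87b. It fell from 1.78, 2.34 and 3.32 CPM to 0.293, 0.456 and 0.659 CPM in WT and from 3.43, 4.56 and 5.11 CPM to 0.271, 0.481 and 0.896 CPM in AhR-KO (log2 fold changes -2.41 ± 0.208 and -3.06 ± 0.197). At Axl an exonic peak at 13.9 kb (chr7:25774291-25775232) fell in both genotypes, from 7.53, 7.78 and 8.78 CPM to 1.73, 1.84 and 2.48 CPM in WT and from 6.47, 8.65 and 10.9 CPM to 1.75, 2.08 and 2.47 CPM in AhR-KO (-2.06 ± 0.127 and -2.07 ± 0.126). The intronic Timd4 peak rose from a median of 1.16 to 3.96 CPM in WT and from 0.363 to 1.66 CPM in AhR-KO (1.65 ± 0.304 and 2.14 ± 0.378). In WT its LPS and unstimulated libraries overlapped.

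Gains with LPS at Scarb1, Msr1 and Cd36 lay away from the TSS. The Scarb1 peak at 35.5 kb was the only higher DAR of 20, from 0.839, 1.12 and 1.28 CPM to 4.40, 5.57 and 6.89 CPM in WT and from 1.32, 1.59 and 2.17 CPM to 8.63, 10.3 and 11.4 CPM in AhR-KO (log2 fold changes 2.35 ± 0.140 and 2.62 ± 0.123). The Scarb1 promoter peak fell in both genotypes, past 1.5-fold in AhR-KO only. The Msr1 peak 3.99 kb upstream (chr8:39646507-39646821) rose from 0.610, 0.787 and 0.971 CPM to 2.10, 2.81 and 3.53 CPM in WT (1.84 ± 0.180) and from 0.487, 0.657 and 1.13 CPM to 3.87, 4.48 and 5.42 CPM in AhR-KO (2.64 ± 0.170). The Cd36 peak at 8.86 kb (chr5:17879341-17880552) rose from medians of 26 and 25.2 CPM to 47.5 and 42.1 CPM in WT and AhR-KO (0.87 and 0.74), and the weaker one at 69.1 kb (chr5:17819549-17819854) by 1.48 and 2.25.

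Stab1 gained accessibility at its exonic peak at 28.8 kb, from 3.10, 3.86 and 4.19 CPM to 10.7, 13.3 and 15.4 CPM in WT and from 5.97, 6.19 and 6.78 CPM to 16.4, 18.1 and 19.9 CPM in AhR-KO (1.82 ± 0.0946 and 1.52 ± 0.0859). A peak 18.1 kb upstream of Stab1 (chr14:31186537-31186945), nearest to Nisch and picked after its values were seen as the largest LPS gain in the 10 loci, went from 0.116, 0.369 and 0.460 CPM to 2.87, 5.44 and 7.69 CPM in WT (3.89 ± 0.263) and from 0.220, 0.366 and 0.478 CPM to 2.98, 3.84 and 4.55 CPM in AhR-KO (3.37 ± 0.259). At Cd163 the peak with the smallest p was an intronic one at 17.1 kb (chr6:124321268-124322294) with log2 fold changes of -0.94 in WT and -0.85 in AhR-KO, and at Olr1 an exonic one at 7.36 kb (chr6:129499499-129500121) with -0.86 and -1.0.

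**Figure D4:**
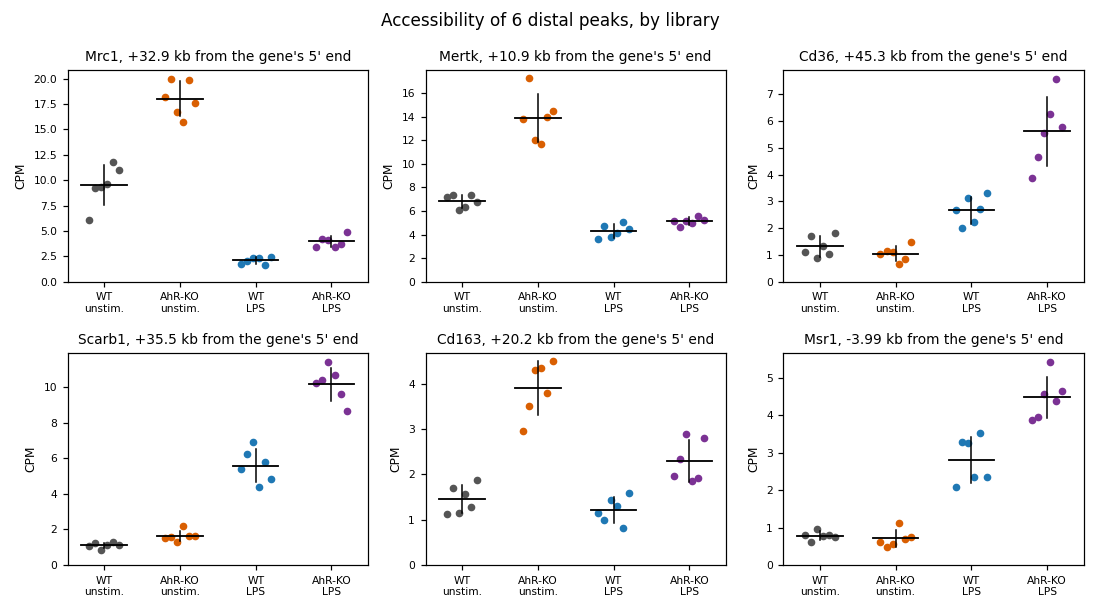
Accessibility in CPM of 6 peaks away from the TSS, those whose central sequence is printed, with 1 point per library, the mean as a horizontal bar and the SD as a vertical line. Mrc1 and Cd163 show higher AhR-KO levels in both treatments, Mertk at rest, Cd36 and Msr1 with LPS, and Scarb1 in both with a steep rise after LPS.

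Whether the LPS response differed between the genotypes was tested as the interaction. The LPS effect was more negative in AhR-KO at 16 of the 193 peaks and more positive at 14 (15.5% DARs against 10.4% of all peaks, with 8.29% against 4.58% lower and 7.25% against 5.83% higher). Cd36 and Mertk held 19 of these 30: Cd36 had 10 higher and 0 lower of 35, and Mertk 1 higher and 8 lower of 27. Scarb1 had 3 lower, Mrc1 2 lower, Msr1 2 higher, Axl 1 of each, and Olr1 and Cd163 1 lower each. By sign alone and without a test, the LPS effect was higher in AhR-KO at 28 of 35 Cd36 peaks. It was lower at 24 of 27 Mertk peaks, 24 of 32 Mrc1 peaks and 17 of 20 Scarb1 peaks, against 118 of all 193, these genes included. The split over all tested peaks was not counted. The median difference was -0.10 over the receptor peaks and 0.04 over all tested peaks.

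Among the DARs of this difference, the largest gain was the Cd36 peak at 45.3 kb, which rose with LPS in both genotypes, with log2 fold changes of 0.99 (WT) and 2.42 (AhR-KO) that differed by 1.43 ± 0.270 (adjusted p = 0.000378). The 10 Cd36 peaks with a higher LPS effect lay 38.2 to 112 kb from the 5′ end, with differences of 0.80 to 1.43. At Mertk the peak at 10.9 kb had LPS effects of -0.66 in WT and -1.43 in AhR-KO, a difference of -0.77 ± 0.140 (adjusted p = 0.00025), and the medians of the genotypes went from 6.99 and 13.9 CPM to 4.32 and 5.16 CPM. The 8 Mertk peaks with a lower LPS effect lay 10.9 to 108 kb from the 5′ end, with differences of -1.61 to -0.59.

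The Scarb1 peak at 3.95 kb had LPS effects of -0.79 in WT and -2.15 in AhR-KO (difference -1.36 ± 0.189, adjusted p = 5.87e-06). An intronic Axl peak at 11.8 kb (chr7:25776546-25777297) had medians of 28.9 and 37.1 CPM at rest and 19.1 and 15.2 CPM with LPS in WT and AhR-KO (difference -0.68 ± 0.135, adjusted p = 0.000836). For Msr1 the LPS gain of the upstream peak was larger in AhR-KO by 0.80 (adjusted p = 0.0337), and that of the intronic peak at 3.52 kb by 0.69 (adjusted p = 0.0237), the latter not past the threshold without WT_unstimulated replicate 2 (adjusted p = 0.0576) or AhR-KO_unstimulated replicate 1 (0.0514). The Cd163 peak 8.34 kb upstream (chr6:124296211-124296422), at 0.221 to 1.86 CPM, had a difference of -1.33 (adjusted p = 0.0323) that was lost when any one of WT_unstimulated replicates 1 and 3, AhR-KO_unstimulated replicate 3, WT_LPS replicates 1, 2 and 6 or AhR-KO_LPS replicate 6 was left out (adjusted p from 0.0511 to 0.0658).

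**Figure D5:**
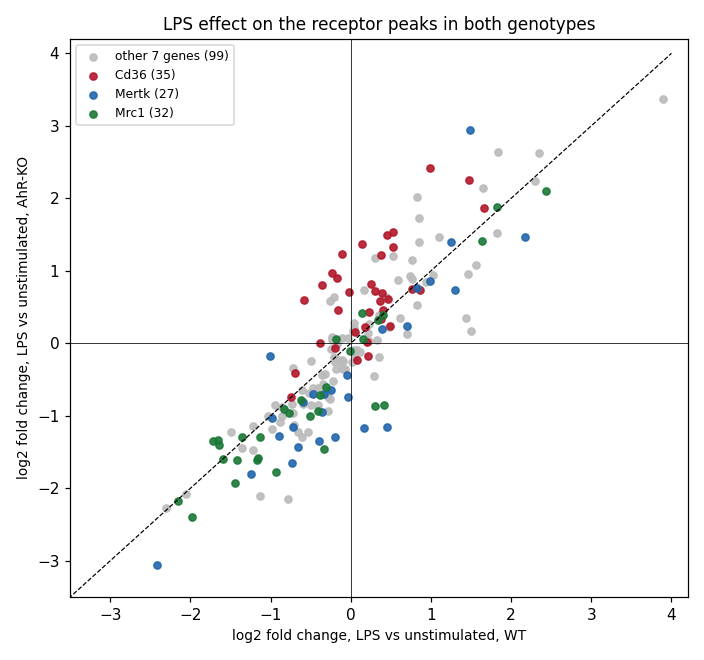
Log2 fold change with LPS in AhR-KO against that in WT for the 193 tested receptor peaks, with Cd36 (35), Mertk (27) and Mrc1 (32) coloured and the dashed line marking equal change. Cd36 peaks lie mostly above the line (28 of 35) and Mertk peaks mostly below it (24 of 27). The split over all tested peaks was not counted.

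The sequences at the receptor peaks were much like those of all peaks. In the central 300 bases, 18.7% of the 193 receptor peaks held an AP-1 match (TGANTCA) against 18.1% of all 174106 tested peaks with sequence, 14% against 16.3% the AhR core (GCGTG), 14.5% against 15.8% a C/EBP match (TTGCNNAA), 6.22% against 7.49% a PU.1 match (GAGGAAGT), 5.70% against 4.60% an ISRE and 5.18% against 5.91% a MAF half-site (TGCTGAC). The NF-kB motif and the PPAR direct repeat matched 0 of the 193, against 0.778% and 0.0666% of all peaks, and the LXR direct repeat matched 1, against 0.0218%. Both strands were searched, and the PPAR and LXR repeats share the half-site AGGTCA. Receptor peaks that rose with LPS held AP-1 matches in 41.7% of 36 (WT) and 32.7% of 52 (AhR-KO) cases, those that fell in 4.26% of 47 and 8.45% of 71. The same shares over all DARs of those comparisons were 35.6% and 35% for peaks that rose and 7.58% and 7.62% for peaks that fell. The AhR core was in 17.5% of the 40 receptor peaks higher in AhR-KO at rest and in 0 of the 11 lower ones, against 13.7% and 14.3% of all such DARs. Median GC content was 45.3% at the receptor peaks and 46.3% over all peaks.

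Other genes of the same pathways were followed as a list of 19 receptors, 8 ligands and bridging molecules, and 8 genes of the engulfment machinery. At rest, 50 of the 253 tested peaks of the other receptors were higher and 15 lower in AhR-KO (19.8% and 5.93%, against 9.95% and 12.6% of all tested peaks). They included Marco, a scavenger receptor of alveolar macrophages, with 10 higher and 0 lower of 13, the stabilin Stab2 with 10 and 0 of 18, and the endocytic receptor Lrp1 with 13 and 1 of 31. Other receptors had more lower than higher peaks, among them the integrin genes Itgb3 with 0 higher and 5 lower of 21 and Itgav with 2 and 3 of 25, and Adgrb1, which encodes the phosphatidylserine receptor BAI1, with 0 and 3 of 9. The ligands had 4 higher and 11 lower of 55 (7.27% and 20%), and 9 of these 11 were at Mfge8, which bridges phosphatidylserine to integrins. Mfge8 also had 9 lower and 0 higher of 12 with LPS, with median log2 fold changes of -1.08 at rest and -1.23 with LPS. The engulfment genes had 15 higher and 16 lower of 238 (6.30% and 6.72%). With LPS, AhR-KO exceeded WT at 39 and fell below it at 21 of the 253 receptor peaks (15.4% and 8.30%, against 13.4% and 13.1% of all tested peaks), at 6 and 12 of the 55 ligand peaks, and at 21 and 25 of the 238 engulfment peaks. LPS in WT raised 50 and lowered 51 receptor peaks (19.8% and 20.2%, against 25.4% and 21.6% of all tested peaks), raised 4 and lowered 21 ligand peaks, and raised 79 and lowered 54 engulfment peaks, 31 of the 79 at the cholesterol exporter Abca1 (of 49). In AhR-KO these numbers were 54 and 70 (21.3% and 27.7%, against 27.3% and 21.5% of all tested peaks), 5 and 19, and 77 and 59.

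The TSS peaks elsewhere in the genome whose log2 CPM followed each receptor most closely over the 24 libraries are given as a description, since the points share their groups and libraries. They were Igsf8 (Pearson r = 0.989) and Grb2 (0.980) for Mertk, Pkmyt1 (0.981) and Zeb2 (0.980) for Mrc1, Pla2g15 and Abhd15 (0.980 each) for Scarb1, Jup (0.957) and Rdh11 (0.955) for Axl, Cd22 (0.935) and Clec4b1 (0.931) for Cd36, and Slfn2 (0.919) and Gm36079 (0.888) for Olr1. Msr1 had the weakest likeness (Rasal1 and Ifi27, 0.773 each).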

How the data were processed

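ATAC-seq was done on 24 libraries of bone marrow-derived macrophages, 6 in each of 4 groups taken from the labels, which attach the treatment text, LPS included, to every library. The authors processed the reads with the nf-core atacseq pipeline on mm10, called MACS2 broad peaks per library (the MACS2 version is not given in the sources used here), merged them to consensus peaks and deposited raw fragment counts per peak from featureCounts 2.0.1, which required 0.2 of a pair within a peak and counted pairs in every peak they overlapped. Per the labels, reads were demultiplexed with bcl2fastq 2.20.0. The deposited broad peak lists of each library, with their −log10 q-values, were used to count in how many libraries a receptor peak was called: 89 of the 200 in all 6 WT_unstimulated libraries, 97 in AhR-KO_unstimulated, 92 in WT_LPS and 97 in AhR-KO_LPS, and 69, 55, 52 and 41 in none. Starts in the count table are those of the 0-based peak lists, so the first base of each peak is 1 base after the start printed here. Genes, exons and TSS are those of GENCODE vM21, and the sequences and motif windows were read from the mm10 genome.

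All 24 count columns entered 1 fit per test: edgeR 4.0.16 in R 4.3.3 (low-count filter by group, TMM, trended dispersion, robust quasi-likelihood F test, two-sided), with group as the only term and Benjamini-Hochberg adjustment over 174193 peaks. DARs passed a threshold of 0.05 after this adjustment and changed 1.5-fold or more. The script was tested on simulated counts with known changes. Log2 fold changes are given ± SE, taken as the size of the log2 fold change divided by the square root of its F statistic. CPM values use the TMM-scaled totals, with scaling factors of 0.976 to 1.04. Depth was 8.54 to 34.6 M counts, and weak peaks are the least precise. No pair of libraries agreed within sampling noise (lowest chi-square per peak 1.26 in a group). The labels do not say that replicate numbers pair the samples, and the fit has no block. Named peaks were the TSS peak of each gene (the one with the highest mean) and, in each comparison, its DAR with the smallest p; 3 others are marked as picked after their values were seen, and the Cd36 peak that changed sides was named for that. The genes, lists and tests were chosen with earlier results of these data known. Alternatives were RLE scaling, DESeq2 1.42.0, no low-count filter, only the groups compared, a replicate block, other thresholds and windows, and leaving out each library. Tables were handled with Python 3.11.15 and pandas 2.3.3.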

Additional observations from a re-analysis of the deposited data

Results flagged for a closer look

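The named peaks were searched for a library that stood apart from the other 5 of its group by Dixon's criterion at 95%. This flagged 9 of 160 groups, where chance alone flags about 1 in 20. At the Timd4 peak from 46804444 (6.18 kb upstream), WT_LPS replicate 6 had 0.554 CPM against 0.0574 to 0.2 CPM in the others. At the Mrc1 peak from 14223998 (4.92 kb upstream), WT_LPS replicate 3 had 4.25 CPM against 2.31 to 2.64 CPM, and at the Mrc1 peak from 14251903 (22.8 kb), AhR-KO_LPS replicate 4 had 5.98 CPM against 6.17 to 6.28 CPM, a narrow range. The Cd36 peak from 17879341 (8.86 kb) stood at 30.9 CPM in WT_unstimulated replicate 5, the library with the lowest depth, against 24.9 to 26.4 CPM. The Scarb1 TSS peak was at 22.4 CPM in AhR-KO_LPS replicate 1 against 19.8 to 20.3 CPM. The Olr1 peak from 129478353 (28.6 kb) was at 1.45 CPM in AhR-KO_unstimulated replicate 3 against 2.23 to 2.65 CPM. Axl had 3 such values: 0.330 CPM in WT_LPS replicate 1 against 0.586 to 0.632 CPM at the peak from 25749218, 2.48 CPM in WT_LPS replicate 4 against 1.73 to 1.86 CPM at the peak from 25774291, and 4.02 CPM in AhR-KO_LPS replicate 3 against 5.63 to 6.57 CPM at the TSS peak.

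At 12 named peaks the genotype effect differed between the treatments by the interaction test, past both thresholds. The differences were negative (LPS effect lower in AhR-KO) at Scarb1 from 125336992 (-1.36), Cd163 from 124296211 (-1.33), Mrc1 from 14311094 (-1.27), Mertk from 128796155 (-0.96), Mertk from 128708622 (-0.77), Axl from 25776546 (-0.68) and Olr1 from 129476736 (-0.65). They were positive at Cd36 from 17843356 (1.43), Cd36 from 17778003 (0.84), Axl from 25793757 (0.84), Msr1 from 39646507 (0.80) and Msr1 from 39639017 (0.69). The Olr1 peak had medians of 4.17, 7.48, 3.47 and 3.96 CPM in WT_unstimulated, AhR-KO_unstimulated, WT_LPS and AhR-KO_LPS, and the Axl peak from 25793757 had 1.40, 0.743, 1.14 and 1.16 CPM.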

How the results depend on the processing

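Counts of receptor DARs depended on the fold threshold more than on the model. With a minimum fold of 2, lower and higher DARs were 3 and 6 for genotype at rest, 7 and 15 for genotype with LPS, 23 and 21 for LPS in WT, 40 and 29 for LPS in AhR-KO, and 7 and 8 for the interaction. Without a minimum fold, 14 were lower and 88 higher for genotype at rest, 31 lower and 73 higher for genotype with LPS, 71 lower and 56 higher for LPS in WT, and 28 lower for the interaction. With peaks of the gene body alone, 8 were lower and 32 higher for genotype at rest, 12 and 28 for genotype with LPS, 34 and 23 for LPS in WT, and 34 were higher for LPS in AhR-KO. With peaks whose nearest TSS is the receptor's, 10 were lower and 29 higher for genotype at rest, 13 and 39 for genotype with LPS, and 8 were lower in the interaction. At an adjusted p of 0.01, 8 were lower and 33 higher for genotype at rest, 14 and 41 for genotype with LPS, and 3 were higher in the interaction. Not every count of these settings is listed. Leaving out each library in turn gave 8 to 11 lower and 31 to 44 higher DARs for genotype at rest, 15 to 19 and 40 to 47 for genotype with LPS, 45 to 50 and 33 to 38 for LPS in WT, 68 to 72 and 50 to 53 for LPS in AhR-KO, and 14 to 18 and 10 to 16 for the interaction. RLE scaling gave 8 lower and 49 higher for genotype at rest, and DESeq2 9 and 48. Of 1968 values of named peaks with 1 library left out, 14 lost their call and are named with their peaks. The interaction of the Cd36 TSS peak, 0.01 and never past the threshold, turned its sign with RLE scaling (-0.042), with DESeq2 (-0.0458) and in 12 of the fits without 1 library (range over all such fits -0.0864 to 0.0651); the cause was not tested.

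Same-numbered unstimulated and LPS libraries of a genotype correlated in their deviations by 0.00375 to 0.290, and 7 of 12 correlated best with their own number. That is a hint of pairing from the data and not from the design. Not every pair exceeded 0.1, so the numbers were not used as pairs, but this cut is no test of pairing. The LPS and interaction tests treat the libraries as independent, and sharing of animals between the treatments was not tested. With the replicate number as a block, genotype at rest gave 10 lower and 38 higher DARs, genotype with LPS 17 and 45, and LPS in WT 47 and 37, and none of the 82 named values changed its call. The block by animal depended on pairing and was not run, and a fit of only the groups compared gives no interaction. Peaks near or below 1 CPM rest on few reads in the shallower libraries.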
